A study of Homo sapiens with 6 samples.

Results

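The genes described here are 46 human genes that repair or signal DNA double-strand breaks, picked by name for their roles, out of 57905 genes in the deposited table. Each name matched a single row of the table, and all 46 were among the 15343 genes with enough reads to be tested. The 12 recombination genes are BRCA1, BARD1, BRCA2, PALB2, RAD51B, RAD51C, RAD51D, XRCC2, XRCC3, RAD52, RAD54L and RAD54B. The 8 genes of break sensing and end resection are RAD50, MRE11A, NBN, RBBP8, EXO1, BLM, WRN and DNA2. Fanconi genes number 8 (FANCA, FANCC, FANCD2, FANCI, FANCL, FANCM, BRIP1 and USP1), and checkpoint genes number 7 (ATM, ATR, ATRIP, CHEK1, CHEK2, TOPBP1 and CLSPN). The last lists hold 6 genes of the chromatin around breaks (MDC1, TP53BP1, RNF8, RNF168, H2AFX and UIMC1) and 5 genes of end joining (PRKDC, XRCC4, XRCC5, XRCC6 and LIG4).

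RNA-seq was performed on HK-2 cells, a human kidney proximal tubular line immortalized with papillomavirus oncogenes. INO80 is the ATPase of a chromatin remodeling complex, and the question was how its knockdown changes the transcriptome. Wild-type cells received a pool of siRNAs against INO80 (3 libraries) or a non-targeting control pool (3 libraries) and were harvested after 48 h. All 6 libraries share the cell line and the transfection, the effect of a single siRNA sequence cannot be told apart from that of the pool, and nothing in the labels states that the replicates were separate cultures, so p-values measure only the spread between these libraries.

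A double-strand break can be rejoined directly or copied from the sister chromatid. In end joining, the Ku heterodimer binds the ends and recruits the DNA-dependent protein kinase and a ligase. In homologous recombination, the ends are resected to single strands, and BRCA1, PALB2 and BRCA2 help load the recombinase that searches for the intact copy. The kinases ATM and ATR signal the damage to CHEK2 and CHEK1, and the Fanconi proteins repair crosslinks between strands. Many of these genes are transcribed most strongly in cells that replicate their DNA. In bulk RNA, fewer cells in a phase of the cell cycle and less RNA per cell cannot be told apart.

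The reads assigned to genes ranged from 16829273 to 20311588 in the control libraries and from 20678008 to 23784599 in the INO80 siRNA libraries. The members took between 0.357% and 0.425% of those reads. INO80 itself, the check of the labels, was at 46.3, 49.3 and 54.0 CPM (counts scaled to library size) in the control libraries and at 13.8, 12.0 and 14.2 CPM in the INO80 siRNA libraries. Its level was 26.7% of control (log2 fold change -1.90, SE 0.0956, adjusted p = 0.000161 by edgeR). Of 10 proximal tubule markers, 5 had means under 0.1 FPKM, LRP2 and CUBN included. PAX8 was between 33.4 and 48.7 FPKM, GGT1 between 31.4 and 43.7 FPKM, and DPP4 between 20.0 and 29.0 FPKM. The proximal tubule list summed to between 103.8 and 111.1 FPKM under control siRNA and between 98.6 and 108.7 FPKM under INO80 siRNA. None of its 5 tested markers passed edgeR or DESeq2. With the replicate block (a fit described below), DPP4 (log2 fold change -0.17, adjusted p = 0.0027) and PAX8 (-0.11, 0.0254) were lower. The 6 epithelial markers summed to between 447.9 and 497.2 FPKM and between 409.9 and 499.5 FPKM, with CDH1 at no more than 0.08 FPKM. None of them had an adjusted p under 0.05 in edgeR, and 1 had an unadjusted p under 0.05. With the replicate block, EPCAM (log2 fold change -0.31, adjusted p = 3.71e-06) and KRT19 (-0.23, 0.000232) were lower and KRT18 (0.19, 0.00102) was higher. EPCAM also passed DESeq2. The 7 fibroblast markers summed to between 50.6 and 115.7 FPKM under control siRNA and between 49.4 and 101.1 FPKM under INO80 siRNA, and LUM made up most of that sum. COL1A2, COL3A1, PDGFRA and PDGFRB had means at or under 0.1 FPKM, and LUM and DCN were highest in replicate 1 of both groups. None of the 7 passed edgeR or DESeq2, and 1 had an unadjusted p under 0.05. With the block, COL1A1 (log2 fold change 0.32, adjusted p = 0.000102) and DCN (0.32, 0.00771) were higher and LUM (-0.14, 0.0124) was lower. The 4 endothelial markers in the table summed to at most 0.03 FPKM and the 5 leukocyte markers to at most 0.5 FPKM in any library. With the block, 2 of 5 tested proximal tubule markers, 3 of 5 epithelial and 3 of 4 fibroblast markers passed, against 24.8% of all genes. An unadjusted p under 0.05 in edgeR was found for 16.4% of all genes. The part of the marker genes in the results was not tested.

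The promoters of 4 members are shown because these genes had the smallest p-values among the 46 in the comparison below. Each runs from 250 bases before to 50 bases after the annotated start in RefSeq (assembly GRCh38.p14), and 39 of the 46 members matched a promoter in that collection. Capitals mark letters of 4 motifs known from cell cycle and housekeeping promoters, searched on both strands. They are E2F (TTTCCCGC, TTTGGCGC, TTTCGCGC or TTTGCCGC), the cell cycle homology region (TTTGAA), the CCAAT box and the NRF1 core (GCATGCGC). FANCD2 lies at chr3:10026187-10026486 on the plus strand. BRIP1 at chr17:61863479-61863778, CHEK2 at chr22:28741771-28742070 and RNF168 at chr3:196503719-196504018 are on the minus strand.
FANCD2: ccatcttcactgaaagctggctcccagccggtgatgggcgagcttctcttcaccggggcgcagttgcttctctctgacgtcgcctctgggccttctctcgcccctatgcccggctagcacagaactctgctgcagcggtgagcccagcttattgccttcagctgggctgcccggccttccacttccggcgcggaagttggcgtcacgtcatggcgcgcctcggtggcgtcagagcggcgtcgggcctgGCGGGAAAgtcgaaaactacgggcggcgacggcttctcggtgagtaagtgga
BRIP1: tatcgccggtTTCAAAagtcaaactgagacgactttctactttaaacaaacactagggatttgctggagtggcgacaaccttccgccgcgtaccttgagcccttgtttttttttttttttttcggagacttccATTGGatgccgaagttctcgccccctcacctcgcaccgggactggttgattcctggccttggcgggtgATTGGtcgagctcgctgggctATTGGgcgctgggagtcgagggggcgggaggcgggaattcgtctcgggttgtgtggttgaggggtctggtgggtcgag
CHEK2: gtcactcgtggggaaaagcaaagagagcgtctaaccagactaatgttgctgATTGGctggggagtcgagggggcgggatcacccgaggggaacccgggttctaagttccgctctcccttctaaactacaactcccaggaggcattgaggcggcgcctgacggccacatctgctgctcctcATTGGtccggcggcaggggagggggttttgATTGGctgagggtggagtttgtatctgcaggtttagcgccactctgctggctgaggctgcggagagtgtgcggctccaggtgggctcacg
RNF168: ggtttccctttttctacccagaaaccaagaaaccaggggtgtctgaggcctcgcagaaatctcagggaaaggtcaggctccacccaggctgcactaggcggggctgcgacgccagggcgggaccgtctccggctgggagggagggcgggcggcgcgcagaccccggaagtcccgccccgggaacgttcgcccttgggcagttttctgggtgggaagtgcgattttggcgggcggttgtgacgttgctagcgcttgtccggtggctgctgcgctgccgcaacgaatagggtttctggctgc

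FANCD2 held an E2F match across the start site, and BRIP1 and CHEK2 each held 3 CCAAT boxes. BRIP1 also held a cell cycle homology region, and RNF168 held none of the 4 motifs. Over the 39 matched members, E2F letters were in 8 promoters (20.5%), against 3.33% of 27305 promoters of all genes and 4.44% of 15843 promoters of coding genes. CCAAT was in 20 of 39 (51.3%, against 35.7% of all and 36.4% of coding promoters). The cell cycle homology region was in 5 of 39 (12.8%, against 15.4% and 12.1%), and the NRF1 core was in 3 of 39 (7.69%, against 3.27% and 4.26%). These shares describe letters in a window and were given no test.

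Levels were compared between genes as FPKM, which divides by exonic length. The 46 genes ranged from 0.520 to 182.5 FPKM over the 6 libraries, with a median of 6.83. The Ku subunits were the most abundant members. XRCC6, which encodes Ku70, stood at 168.6, 185.8 and 185.1 FPKM under control siRNA and at 176.7, 186.4 and 192.1 FPKM under INO80 siRNA. XRCC5, which encodes Ku80, stood at 101.3, 110.5 and 110.5 FPKM and at 99.97, 109.6 and 110.8 FPKM. PRKDC, the catalytic kinase subunit that joins Ku at the end, was the next with 48.4, 56.5 and 48.0 FPKM and with 38.5, 52.9 and 40.1 FPKM. These 3 end joining genes made up between 46.3% and 48.1% of the summed FPKM of all members in a library. The histone gene H2AFX (mean 41.7 FPKM), the deubiquitinase USP1 (37.0), the break sensor NBN (29.4) and the ATR activator TOPBP1 (25.6) followed.

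At the low end, RAD51B, a paralog of the recombinase, was at 0.45, 0.69 and 0.56 FPKM under control siRNA and at 0.35, 0.56 and 0.51 FPKM under INO80 siRNA. ATM, the apical kinase of the break response, was at 1.26, 1.26 and 1.04 FPKM and at 0.95, 1.14 and 0.87 FPKM, and RAD54B, a motor protein of recombination, was at 2.20, 1.97 and 1.90 FPKM and at 1.61, 1.89 and 1.48 FPKM. Within a complex, levels were unequal. The NBN level was 4.81 ± 0.385 (SD, n = 3) times that of RAD50 under control siRNA, whereas the MRE11A level was 1.08 ± 0.0507 times that of RAD50. ATR was 3.03 ± 0.326 times as high as its partner ATRIP.

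**Figure D1:**
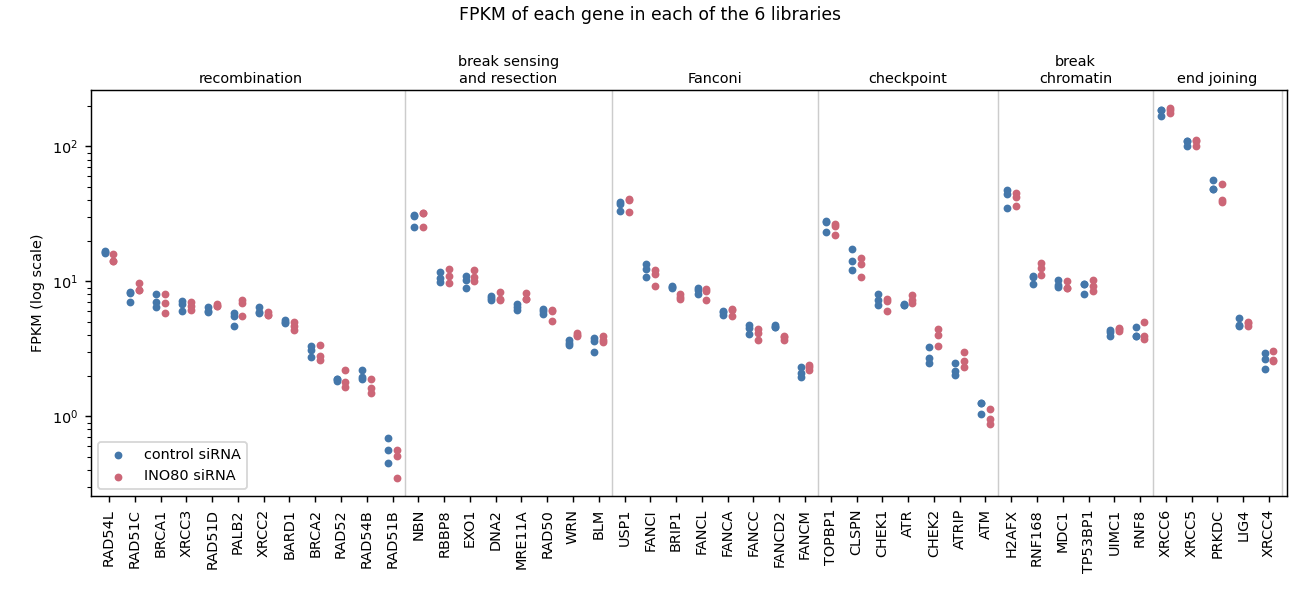
FPKM of the 46 genes on a log axis, ordered by mean within each role, with a point for each of the 3 control siRNA and 3 INO80 siRNA libraries. Levels run from 0.520 FPKM for RAD51B to 182.5 FPKM for XRCC6, and the points of both groups lie close together for most genes.

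INO80 siRNA libraries were then compared with control siRNA libraries. None of the 46 genes had an adjusted p under 0.05 in edgeR's quasi-likelihood test across all genes, in which 1.75% of the 15343 genes did. At an unadjusted p under 0.05 there were 8 members (17.4%, against 16.4% of all genes), of which RAD54L, FANCD2 and BRIP1 were lower under INO80 siRNA and PALB2, MRE11A, WRN, CHEK2 and RNF168 were higher. By DESeq2, 2 members had an adjusted p under 0.05, both lower, against 5.28% of the 12071 genes to which DESeq2 gave an adjusted p. They were FANCD2 (adjusted p = 0.0393) and BRIP1 (adjusted p = 0.0386). The libraries of the groups did not overlap for 12 members (26.1%, against 22.8% of all genes). Of these, 5 were lower (11.5% of all genes were) and 7 higher (11.3% of all genes were), and each had p = 0.1 in the exact two-sided permutation test, the smallest that 3 libraries against 3 allow.

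Differences were small in either direction. The median log2 fold change of the members was -0.01 (0.01 over all genes tested), with 24 genes below 0 and 22 above. The range was from -0.30 (RAD54B) to 0.47 (CHEK2). A log2 fold change under 0.3 in size was found for 45 of 46 members (80.8% of all genes), and under 0.1 for 23 of them (39.4% of all genes). The 95% interval of the log2 fold change lay between -1 and 1 for all 46 genes, and between -0.5 and 0.5 for 40.

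Replicates of equal number moved together away from their group means, and a blocked fit is therefore quoted for each gene whose call it alters. With the replicate block, 14 of 46 members had an adjusted p under 0.05 (30.4%, against 24.8% of all genes). They were 8 lower (13.4% of all genes were called lower) and 6 higher (11.4% of all genes were called higher). The call held for 8 of these genes when any 1 of the 3 pairs was left out, as it did for 11.2% of all genes. Those 8 were FANCD2, FANCI, BRIP1, ATM and PRKDC, which were lower, and PALB2, CHEK2 and RNF168, which were higher. ATM alone of these 8 did not pass DESeq2 with the block. The block left the estimates nearly as they were, with a median of -0.01 over the members. Each INO80 siRNA library was below the control of its number for 15 of 46 members and above it for 12. Over the 15343 genes tested, this was so for 3967 and 4116 genes.

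**Figure D2:**
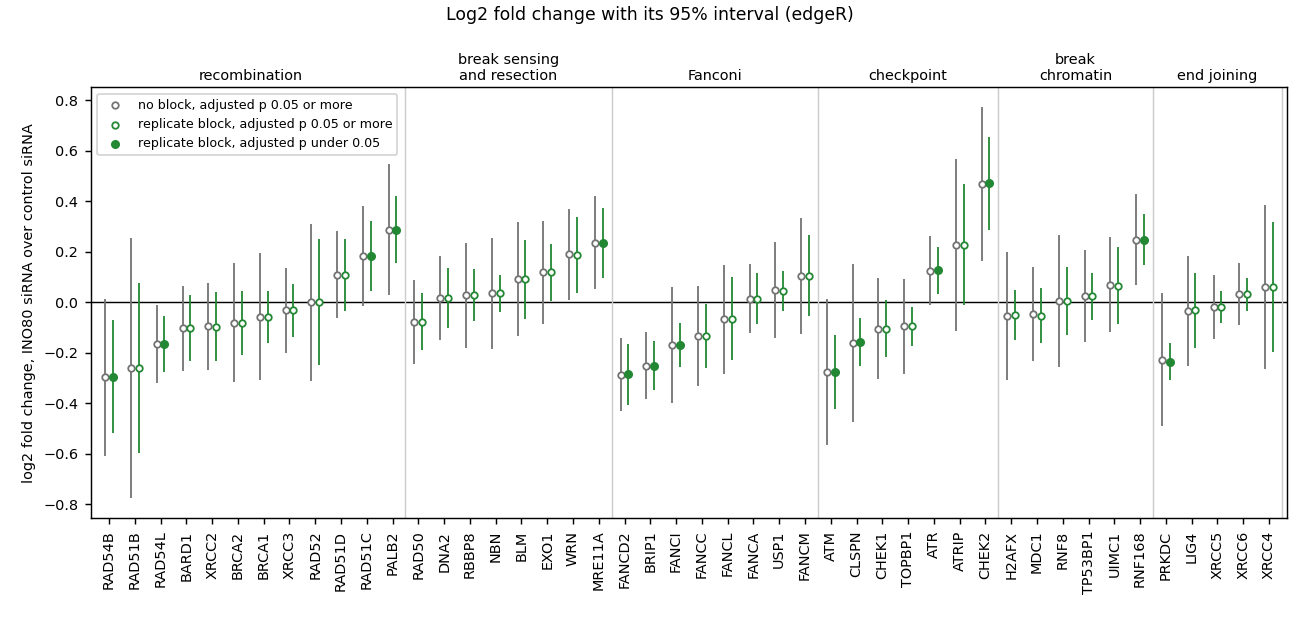
Log2 fold change of each gene (INO80 siRNA over control siRNA) with its 95% interval from edgeR, without (grey) and with (green) the replicate block, ordered within each role. No grey point passed an adjusted p of 0.05, and the 14 filled green points did, from RAD54B at -0.29 to CHEK2 at 0.47.

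Of the 12 recombination genes, 9 were below 0 and 3 above, with a median log2 fold change of -0.07, and 4 passed with the block (33.3%, against 24.8% of all genes). PALB2, which bridges BRCA1 and BRCA2 (ENSG00000083093, chromosome 16 from 23614488 to 23652631, all gene positions in GRCh37), was at 22.6, 27.4 and 26.3 CPM under control siRNA and at 26.8, 34.2 and 32.1 CPM under INO80 siRNA. Its groups overlapped, but each INO80 siRNA library was above the control library of its number (log2 fold change 0.29, SE 0.114, adjusted p = 0.256 by edgeR, and 0.00145 with the replicate block). RAD54L, the motor protein that remodels the recombination joint (ENSG00000085999, chromosome 1 from 46713360 to 46744145), was at 53.6, 52.3 and 53.2 CPM and at 46.5, 50.6 and 44.7 CPM. All INO80 siRNA libraries of RAD54L lay below the controls (log2 fold change -0.17, SE 0.0677, adjusted p = 0.270, and 0.0252 with the block). The blocked call of RAD54L was lost without pair 3, where its adjusted p was 0.266.

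The related RAD54B (ENSG00000197275) was at 12.0, 10.4 and 10.0 CPM under control siRNA and at 8.80, 9.86 and 7.72 CPM under INO80 siRNA, without overlap (log2 fold change -0.30, SE 0.136, adjusted p = 0.326, and 0.0483 with the block). Leaving out pair 1 or pair 3 put the blocked adjusted p of RAD54B at 0.190 and 0.239. RAD51C, another recombinase paralog, was higher without overlap (log2 fold change 0.18, adjusted p = 0.345, and 0.0475 with the block), and its blocked call was lost without pair 1 (0.204) or pair 2 (0.224). RAD51B, the least abundant member (ENSG00000182185, chromosome 14 from 68286496 to 69196935), had the widest interval. It was at 3.42, 5.14 and 4.14 CPM and at 2.69, 4.14 and 3.76 CPM, with overlap (log2 fold change -0.26, SE 0.226, adjusted p = 0.629). The 95% interval of RAD51B ran from -0.78 to 0.25 on the log2 scale, and its estimate was -0.10 without control siRNA replicate 2 and -0.11 without INO80 siRNA replicate 1.

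BRCA1 and BARD1, which form a ubiquitin ligase, had log2 fold changes of -0.06 and -0.10, and BRCA2, the recombinase loader, had -0.08, none past the test. XRCC2, which acts with RAD51D, was at 29.0, 31.4 and 28.5 CPM under control siRNA and at 28.1, 26.8 and 28.3 CPM under INO80 siRNA (log2 fold change -0.10). RAD51D was at 22.5, 23.9 and 22.2 CPM and at 25.0, 25.1 and 24.1 CPM (log2 fold change 0.11). Neither gene overlapped between groups, and neither passed a fit. XRCC3 (-0.03) and RAD52 (0.00) lay at 0.

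Among the 8 genes of sensing and resection, 7 were above 0, with a median log2 fold change of 0.06. MRE11A, the nuclease of the complex with RAD50 and NBN (ENSG00000020922, chromosome 11 from 94152895 to 94227074), was at 23.5, 21.7 and 23.8 CPM under control siRNA and at 27.1, 25.8 and 28.4 CPM under INO80 siRNA. All INO80 siRNA libraries of MRE11A lay above the controls (log2 fold change 0.24, SE 0.0803, adjusted p = 0.190, and 0.0106 with the block). It was the only gene of this list to pass with the block (12.5%, against 24.8% of all genes). The blocked call of MRE11A was lost without pair 2 (0.0695) or pair 3 (0.0873). WRN, a RecQ helicase (ENSG00000165392), was at 19.6, 20.6 and 19.4 CPM and at 23.1, 21.9 and 23.0 CPM. WRN did not overlap between groups, yet it passed neither fit (log2 fold change 0.19, SE 0.0790, adjusted p = 0.280, and 0.0638 with the block). The partners RAD50 and NBN had log2 fold changes of -0.08 and 0.04. EXO1 (0.12) and DNA2 (0.02), the long-range resection nucleases, BLM (0.09), a helicase that works with DNA2, and RBBP8 (0.03), the cofactor of MRE11A, passed neither fit.

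The 8 Fanconi genes held the 2 members with the smallest p-values. FANCD2, the protein ubiquitinated at crosslinks (ENSG00000144554, chromosome 3 from 10068098 to 10143614), was at 39.3, 38.4 and 39.5 CPM under control siRNA and at 31.6, 32.1 and 32.2 CPM under INO80 siRNA. The libraries within each group of FANCD2 lay close together, at 39.0 ± 0.583 and 32.0 ± 0.323 CPM (SD, n = 3), and the groups were apart (log2 fold change -0.29, SE 0.0633, adjusted p = 0.0682, and 0.000637 with the block). BRIP1, the helicase that binds BRCA1 (ENSG00000136492, chromosome 17 from 59758627 to 59940882), was at 74.8, 73.9 and 70.5 CPM and at 61.1, 63.2 and 59.7 CPM. BRIP1 did not overlap either (log2 fold change -0.25, SE 0.0583, adjusted p = 0.0788, and 0.000231 with the block).

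FANCI, which pairs with FANCD2, was at 85.3, 103.9 and 95.8 CPM and at 74.1, 93.4 and 86.0 CPM. Its groups overlapped, while every INO80 siRNA library was below the control of its number (log2 fold change -0.17, SE 0.101, adjusted p = 0.460, and 0.00423 with the block). The core complex genes FANCA (0.01), FANCC (-0.13) and FANCL (-0.07), the translocase FANCM (0.10) and the deubiquitinase USP1 (0.05), which acts on FANCD2, passed neither fit. The median over the 8 genes was -0.10. With the block, 3 of the 8 passed (37.5%, against 24.8% of all genes), all lower.

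The 7 checkpoint genes included the largest positive difference of the 46 members. CHEK2, the kinase activated by ATM (ENSG00000183765, chromosome 22 from 29083731 to 29138410), was at 10.5, 11.2 and 13.4 CPM under control siRNA and at 14.2, 16.4 and 18.0 CPM under INO80 siRNA. The groups of CHEK2 did not overlap, although the lowest INO80 siRNA library lay close to the highest control (log2 fold change 0.47, SE 0.133, adjusted p = 0.129, and 0.000278 with the block). Without the filter on low counts, CHEK2 alone of the 46 passed edgeR's test. ATM (ENSG00000149311, chromosome 11 from 108093211 to 108239829) was at 28.9, 27.95 and 23.0 CPM and at 21.9, 25.0 and 18.99 CPM. The ATM libraries overlapped between groups (log2 fold change -0.28, SE 0.127, adjusted p = 0.326, and 0.00507 with the block). DESeq2 with the block gave ATM an adjusted p of 0.065, and without INO80 siRNA replicate 3 its log2 fold change was -0.18 in edgeR.

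ATR, the kinase that responds to single-stranded DNA, was at 85.3, 82.7 and 85.0 CPM and at 88.5, 97.4 and 90.1 CPM, without overlap (log2 fold change 0.13, SE 0.0599, adjusted p = 0.350, and 0.0426 with the block). Its blocked call was lost without pair 2 (0.523) or pair 3 (0.1). CLSPN, the adaptor through which ATR activates CHEK1, was at 66.9, 92.9 and 76.4 CPM and at 59.7, 79.9 and 71.7 CPM, with overlap (log2 fold change -0.16, SE 0.137, adjusted p = 0.622, and 0.0123 with the block). The blocked call of CLSPN was lost without pair 2 (0.193). CHEK1 (-0.11), TOPBP1 (-0.10) and ATRIP (0.23) passed neither fit, and the median of the list was -0.10. TOPBP1 did pass the blocked fit without pair 1 (0.00586). In the blocked fit on all pairs, 4 of the 7 genes passed (57.1%, against 24.8% of all genes), 2 lower and 2 higher.

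In the chromatin around a break, ATM phosphorylates the histone encoded by H2AFX, MDC1 binds it, and the ligases RNF8 and RNF168 add the ubiquitin that brings TP53BP1 and UIMC1. RNF168 (ENSG00000163961, chromosome 3 from 196195654 to 196230639) was at 52.6, 58.2 and 56.9 CPM under control siRNA and at 61.0, 72.1 and 66.1 CPM under INO80 siRNA. Every INO80 siRNA library of RNF168 was above every control (log2 fold change 0.25, SE 0.0783, adjusted p = 0.164, and 0.00041 with the block). UIMC1, a ubiquitin reader also called RAP80 (ENSG00000087206, chromosome 5 from 176332006 to 176449634), was at 19.7, 20.5 and 21.0 CPM and at 22.5, 20.4 and 21.3 CPM, with overlap (log2 fold change 0.07, SE 0.0827, adjusted p = 0.737). The log2 fold changes of H2AFX (-0.05), MDC1 (-0.05), TP53BP1 (0.02) and RNF8 (0.01) were within 0.1 of 0, and the median of the list was 0.02. RNF168 alone of the 6 genes passed with the block (16.7%, against 24.8% of all genes). The pairs of MDC1 differed in direction (log2 ratios 0.15, -0.09 and -0.21). Without pair 1, MDC1 had an adjusted p of 0.00857 in the blocked fit.

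The 5 end joining genes had a median log2 fold change of -0.02. PRKDC (ENSG00000253729) was at 765.5, 865.4 and 735.7 CPM under control siRNA and at 611.2, 803.0 and 606.9 CPM under INO80 siRNA. Replicate 2 was the highest in both groups of PRKDC and made them overlap, while each pair differed in the same direction (log2 fold change -0.23, SE 0.116, adjusted p = 0.382, and 2.07e-05 with the block). Without INO80 siRNA replicate 2, the log2 fold change of PRKDC was -0.37 and its adjusted p was 0.137. XRCC6 (ENSG00000196419, chromosome 22 from 42017123 to 42060044) was at 567.7, 605.7 and 603.2 CPM and at 596.2, 601.6 and 618.6 CPM (log2 fold change 0.03, SE 0.0540, adjusted p = 0.827). XRCC5 (ENSG00000079246, chromosome 2 from 216972187 to 217071026) was at 568.1, 600.4 and 599.5 CPM and at 561.7, 589.1 and 594.5 CPM (log2 fold change -0.02, SE 0.0547, adjusted p = 0.907). Both Ku genes overlapped between groups, and their 95% intervals of -0.09 to 0.16 and -0.14 to 0.11 were among the narrower ones. The ligase LIG4 (-0.03) and its scaffold XRCC4 (0.06) passed neither fit. PRKDC alone of the 5 genes passed with the block (20.0%, against 24.8% of all genes).

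**Figure D3:**
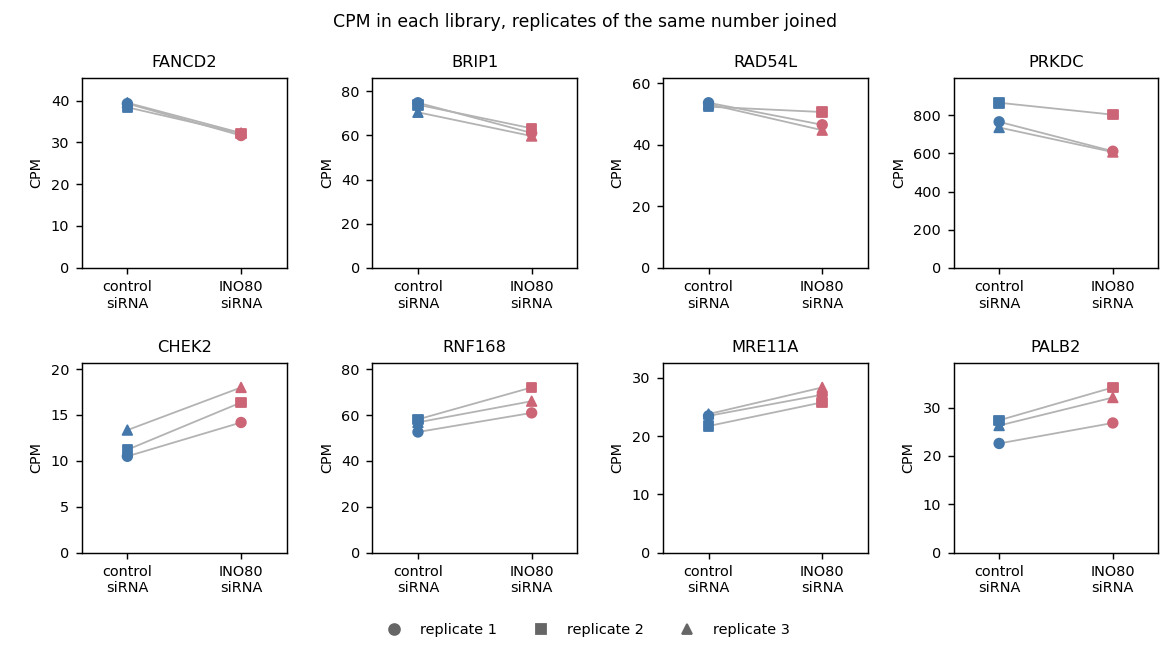
CPM in the 6 libraries of 8 members, picked from the members given in full. A line joins each control library to the INO80 siRNA library of its number, and each axis starts at 0. All 3 lines go down for FANCD2, BRIP1, RAD54L and PRKDC and go up for CHEK2, RNF168, MRE11A and PALB2, while the points of the groups overlap for PRKDC and PALB2. UIMC1 and XRCC6, also given in full, had pairs of mixed direction and are not drawn. The agreement of the lines thus says nothing about the other members.

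Members that act together were set against each other as a ratio of FPKM within a library, for 11 couples chosen after the values were seen and given no test. The ratio of CHEK2 to ATM was 1.96, 2.16 and 3.12 in the control libraries and 3.51, 3.52 and 5.08 in the INO80 siRNA libraries, without overlap. The ratio of BRCA2 to PALB2 was 0.575 ± 0.0197 in controls and 0.446 ± 0.0376 after knockdown (SD, n = 3), and that of MRE11A to RAD50 was 1.08 ± 0.0507 and 1.35 ± 0.125. RNF168 to RNF8 moved from 2.5 ± 0.172 to 2.96 ± 0.230, and XRCC5 to XRCC6 from 0.598 ± 0.00295 to 0.577 ± 0.0111. The groups overlapped for the other couples, which were BRCA1 to BARD1, FANCD2 to FANCI, NBN to RAD50, ATR to ATRIP, XRCC4 to LIG4 and CHEK1 to CLSPN.

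Another 41 genes of the same pathways, which are not members, were read in the same fit. No gene of that list had an adjusted p under 0.05 in edgeR, and none passed DESeq2. An unadjusted p under 0.05 was found for 7 (17.1%, against 16.4% of all genes). The median log2 fold change of the 41 genes was -0.03. With the block, 8 passed (19.5%, against 24.8% of all genes), 5 lower and 3 higher. The groups did not overlap for 14 of them (34.1%, against 22.8% of all genes), of which 11 were lower (11.5% of all genes were). The 3 partners of BLM in dissolving recombination joints were singled out after their values were seen. RMI2 was at 17.1 ± 2.10 CPM in controls and at 12.8 ± 1.18 CPM after knockdown (SD, n = 3; log2 fold change -0.41, adjusted p = 0.144 by edgeR, and 0.000948 with the block). RMI1 was at 22.7 ± 2.56 and 27.9 ± 3.87 CPM (log2 fold change 0.29, adjusted p = 0.287, and 0.00473 with the block), and TOP3A at 46.0 ± 4.15 and 53.4 ± 1.37 CPM (log2 fold change 0.22, adjusted p = 0.216, and 0.0046 with the block). Smaller adjusted p-values in edgeR were found for WEE1 (log2 fold change 0.22, adjusted p = 0.13, and 0.000509 with the block) and BABAM1 (-0.28, 0.132, and 0.000209 with the block).

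Gene lists of the cell cycle and of the p53 response were set beside the members. Against 1.75% of all genes, 1 of 26 S phase genes passed edgeR's test. It was MCM2, a subunit of the replicative helicase, at 210.4, 279.3 and 265.1 CPM under control siRNA and at 95.4, 126.8 and 122.4 CPM under INO80 siRNA, without overlap (log2 fold change -1.13, SE 0.133, adjusted p = 0.00852). By DESeq2, 2 of the S phase genes passed, against 5.28% of the genes to which DESeq2 gave an adjusted p. The S phase median was -0.08, with 21 genes below 0, and 10 passed with the block (38.5%, against 24.8% of all genes), 8 lower and 2 higher. CCNE2, a cyclin of S phase entry singled out after its values were seen, was at 22.6 ± 1.83 CPM in controls and at 30.1 ± 1.27 CPM after knockdown (SD, n = 3; log2 fold change 0.41, adjusted p = 0.0574 by edgeR, and 6.83e-05 with the block). Of 20 G2 and M genes, none passed in edgeR or DESeq2. An unadjusted p under 0.05 was found for 1 of these genes (5.0%, against 16.4% of all genes). Their median was 0.04, with 15 above 0, and 7 passed with the block (35.0%; 1 lower and 6 higher). Of 16 p53 target genes, none passed in edgeR or DESeq2. At an unadjusted p under 0.05 there were 4 (25.0%, against 16.4% of all genes), all higher. The median over the 16 was 0.03, and 5 passed with the block (31.2%, 1 lower and 4 higher). The part of the cell cycle in the members' differences was not tested.

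The members also shared a pattern between replicates, which was not particular to them. Replicate 1 was the lowest library in both groups for 22 of 46 members (47.8%, against 24.7% of all genes) and the highest in both for 1 member (2.17%, against 24.1%). Replicate 2 was the highest in both groups for 21 members (45.7%, against 16.5%). All S phase genes read here except CDC45, CCNE1 and CCNE2 were also lowest in replicate 1 of both groups. So were all G2 and M genes read here except CDK1, CENPE, KIF23, UBE2C and TTK. On the log2 scale, the median deviation of the members from their means was -0.07, 0.06 and 0.02 in control replicates 1, 2 and 3, and -0.09, 0.07 and -0.02 in INO80 siRNA replicates 1, 2 and 3. CLSPN, BRCA1 and FANCI were examples, each lowest in replicate 1 and highest in replicate 2 of both groups. BRCA1 was at 54.5, 65.9 and 57.5 CPM under control siRNA and at 49.99, 65.3 and 55.8 CPM under INO80 siRNA. With replicate 1 of both groups left out, no member had an adjusted p under 0.05 without the block. What set replicate 1 apart was not tested.

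**Figure D4:**
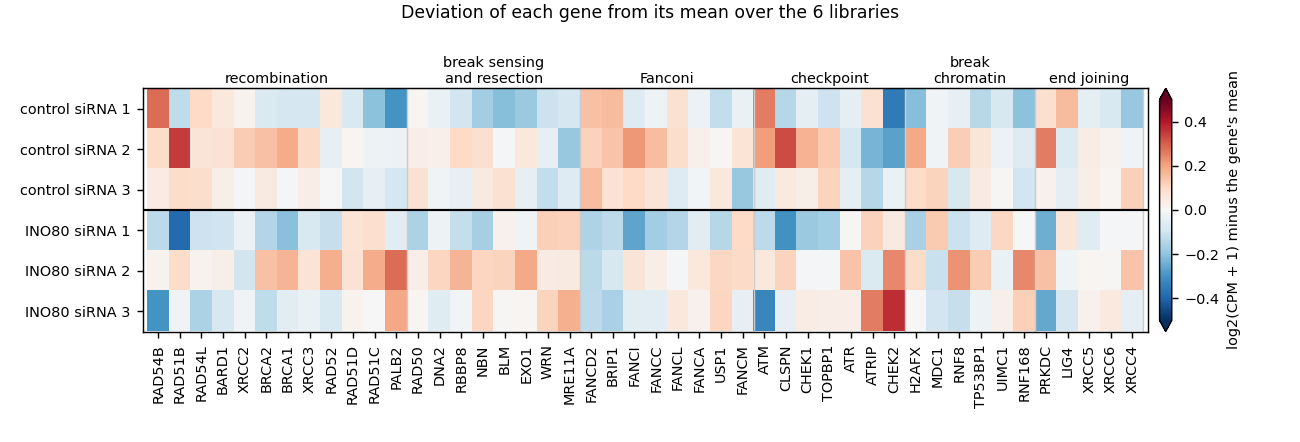
Deviation of each gene from its mean over the 6 libraries, as log2(CPM + 1), with libraries in rows and genes in columns by role. Replicate 1 of both groups is mostly blue (below the mean, 33 of 46 members in each), and replicate 2 is mostly red (above the mean, 32 of 46 under control siRNA and 36 of 46 under INO80 siRNA).

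Reads near some members may belong to a neighbour. Another gene with at least 1 FPKM overlapped 12 of the 46 genes, on the same strand for MRE11A, ATRIP and CHEK1 and on the opposite strand for CHEK2 (HSCB), ATM (NPAT), FANCI (POLG) and RAD54L (LRRC41), among others. The strand setting of the counting is not given in the sources used here. HSCB, NPAT and POLG had log2 fold changes of 0.07, 0.01 and 0.08, none past either fit, and LRRC41 had -0.12 (adjusted p = 0.454 by edgeR, and 0.0682 with the block). Of 11 pseudogene copies in the table, those of CHEK2, FANCD2 and RBBP8 had no counts in any library, and 1 copy of XRCC6 had between 1 and 6. These counts do not show whether reads align to both a member and its copy.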

How the data were processed

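RNA-seq was analysed for 6 HK-2 libraries. The table that the authors deposited pairs raw read counts per gene with FPKM values for every library. The submitters' processing notes name HISAT2 2.0.1, HTSeq and hg19, while the study's methods name another aligner and build. Gene positions in the deposited table are those of GRCh37. The kit marks strand. The deposited FPKM values equal the count divided by exonic length and total count.

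Counts were compared in R 4.3.3 with edgeR 4.0.16 (filterByExpr, TMM normalization, quasi-likelihood test, two-sided, treatment alone in the model), with Benjamini-Hochberg adjustment over 15343 genes. CPM are scaled by TMM. Steps were tested on simulated data, in which each fit recovered all 200 genes that were changed 4-fold. The members' differences were smaller, and changes of their size were not simulated. False calls in the simulated data are not reported here, so the recovery does not show how the fits treat unchanged genes. Across genes, deviations from the group mean correlated at 0.675, 0.502 and 0.474 between libraries of the same number and at most at 0.175 otherwise, so the numbers were taken to pair the libraries, and the replicate block is an alternative. Other alternatives were DESeq2 1.42.0, limma 3.58.1 on log2(FPKM + 0.1) or log2(FPKM + 1), other scalings, filters and thresholds, and each library left out. Blocked fits on 2 pairs, DESeq2 with the block and a fit without replicate 1 were chosen after seeing the data.

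Full values were given for any member called, the 2 members of each role with the smallest p, and the 3 with the highest and the 3 with the lowest FPKM. Values of FANCI, ATR, CLSPN, RAD51C, RAD51D, XRCC2 and BRCA1 were added after they were seen. The members and gene lists were chosen with earlier results of these data known. Whether groups overlapped was read from the scaled CPM.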

Additional observations from a re-analysis of the deposited data

How the results depend on the processing

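No member had an adjusted p under 0.05 with median ratio or total count scaling, with a mean FPKM of at least 1 (45 members tested), with limma on log2(FPKM + 0.1) or log2(FPKM + 1), or without replicate 1 of both groups, and leaving out single libraries gave from 0 to 0. The count was 1 (0 lower, 1 higher, CHEK2) in edgeR with no filter, 2 (2 lower) in DESeq2 and 2 at an adjusted p under 0.1. With the replicate block it was 14 (8 lower, 6 higher). On 2 pairs it was 14 without pair 1 (9 lower, 5 higher), 10 without pair 2 (7 lower, 3 higher) and 10 without pair 3 (6 lower, 4 higher). DESeq2 with the replicate block gave 7 (4 lower, 3 higher), without ATM. The cause of these differences was not tested. The blocked fit on all pairs called 24.8% of all genes, and DESeq2 called 5.28%. The share of all genes was not counted for the fits on 2 pairs, DESeq2 with the block, no filter or the looser threshold. The counts of members from those settings are therefore no result about the members. Of 284 comparisons of the 15 members given in full across 19 alternatives, 239 kept their direction and their side of the threshold, 44 passed it and 1 reversed, XRCC5 without INO80 siRNA replicate 1 (log2 fold change 0.006, adjusted p = 0.971, with a range from -0.0446 to 0.006 over single libraries left out). Among those of the 15 members with a log2 fold change over 0.1 in size, leaving out 1 library moved it by over 1.5 times for PRKDC (-0.37 without INO80 siRNA replicate 2), ATM (-0.18 without INO80 siRNA replicate 3) and RAD51B (-0.10 without control siRNA replicate 2, -0.11 without INO80 siRNA replicate 1). The log2 fold change of CHEK2 ran from 0.37 to 0.57 and that of FANCD2 from -0.30 to -0.22. That of PRKDC ran from -0.37 to -0.16. Adjusted p-values ran from 3.23e-05 to 0.381 for CHEK2, from 0.000303 to 0.230 for FANCD2 and from 4.36e-05 to 0.286 for BRIP1. RAD51B, the least abundant member, had as few as 54 counts in a library.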
